A study of Mus musculus with 3 samples.

Results

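The Iroquois genes Irx1 to Irx6 and their neighbour Fto were examined for sites of Tbx4, a T-box factor of the hindlimb, and Hoxc10, a posterior Hox factor, in mouse hindlimb buds. These 7 genes were chosen by name, out of 21887 protein-coding genes of the gene table used. A site was assigned to a gene when its summit lay inside the gene or between it and the next protein-coding gene on either side, at most 1 Mb away, and this stretch is called the domain of the gene. The domains held 20 of 4780 Tbx4 sites and 7 of 1614 Hoxc10 sites. The rule that defines them uses gene names and positions and no score, but the genes were picked with earlier results of these data known.

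The sites came from chromatin immunoprecipitation with sequencing (ChIP-seq) on hindlimb tissue of wild type CD1 embryos at embryonic stage e11.5, 1 sample with a homemade anti-Tbx4 antibody (1695a) and 1 with an Abcam antibody to Hoxc10 (ab153904). A further Hoxc10 sample with a Santa Cruz antibody was not analysed here, and the Hoxc10 list may hold only those Abcam sites that lie near its peaks. There were no replicates, so every interval and test below covers counting error over sites of these lists and not the spread between embryos. The lists hold summits of 1 bp and no read counts, so the depth is unknown, and neither the tissue nor any cell type could be checked against marker genes.

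Iroquois genes encode homeodomain proteins of the TALE class and stand in 2 clusters of 3 genes, which arose from a common ancestral cluster. Irx3 and Irx5 are needed together for the anterior skeleton of the mouse hindlimb, and Irx1 and Irx2 are expressed in the developing digits. Irx4 acts in the ventricular heart muscle and Irx6 in interneurons of the retina. By descent Irx3 pairs with Irx1, Irx5 with Irx2 and Irx6 with Irx4, and in vertebrate embryos the first and second gene of each cluster share contacts with distant enhancers. Fto encodes a demethylase of RNA, and its introns are known to hold enhancers that contact Irx3. The mouse mutation Fused toes, which affects the limb, deletes Fto, Irx3, Irx5 and Irx6 with their neighbours.

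The sites were unevenly spread over the members. On chromosome 8, Irx3 had 8 Tbx4 and 4 Hoxc10 sites in its domain, Irx5 had 7 and 3, Fto 5 and 3, and Irx6 2 and 1. On chromosome 13, Irx1 had 6 Tbx4 sites and 1 Hoxc10 site, Irx2 had 3 and 1, and Irx4 had 1 and 0. A site between 2 members counts for both. All 7 members thus had a Tbx4 site, 6 a Hoxc10 site and 5 a co-bound pair, which is a Tbx4 and a Hoxc10 summit within 200 bp of each other. Over all protein-coding genes a Tbx4 site was found for 17.2%, a Hoxc10 site for 6.83% and a co-bound pair for 2.65%.

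**Figure D1:**
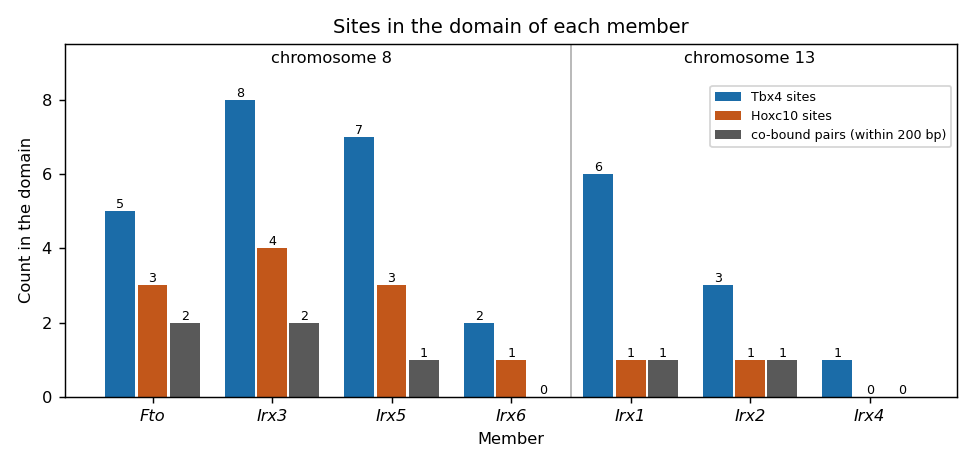
Bars show the number of Tbx4 sites, Hoxc10 sites and co-bound pairs (summits within 200 bp) in the domain of each member, with the chromosome 8 genes left of the chromosome 13 genes. Irx3 has the highest bars for both factors (8 and 4), and Irx4 has 1 Tbx4 site and no Hoxc10 site.

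Over all protein-coding genes, those with long domains held sites more often. Among the members length did not order the counts, as Irx3 with 689 kb had 8 Tbx4 sites and Irx4 with 686 kb had 1. The members' domains had a median of 689 kb, against 67.3 kb over all protein-coding genes. Among the 2491 genes with a domain of at least 400 kb, a bound set at the round value below the shortest domain of the members, a Tbx4 site was found for 51.9%, a Hoxc10 site for 32.3% and a co-bound pair for 14.7%. In that set the median was 1 Tbx4 site and 0 Hoxc10 sites. Since the members' own domains differ in length, each was then set beside the genes with domains of 0.8 to 1.25 times its length, 280 to 998 genes, a range chosen after the counts were seen. As many Tbx4 sites as Irx3 were held by 2.79% of the genes of like length, as Fto by 4.15% and as Irx5 by 5.17%. For Irx1 the share was 13.6%, for Irx6 22.4%, for Irx2 27.2% and for Irx4 50.6%. Over all domains of at least 400 kb the order differed, with 3.13% for Irx3, 4.38% for Irx5, 6.66% for Irx1 and 8.99% for Fto. As many Hoxc10 sites were held by 2.98% of the genes of like length for Fto, 3.35% for Irx3 and 6.12% for Irx5. For Irx6, Irx2 and Irx1 the shares were 22.7%, 38.2% and 40.4%. The shares of Fto, Irx3 and Irx5 are not independent, because every site of Irx3 also counts for Fto or Irx5. Fto shares 2 Tbx4 and 2 Hoxc10 sites with Irx3, and Irx5 shares 6 and 2 with it. The other members overlap as well: Irx6 shares 1 and 1 with Irx5, Irx1 shares 2 and 1 with Irx2, and Irx4 shares 1 and 0 with Irx2.

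**Figure D2:**
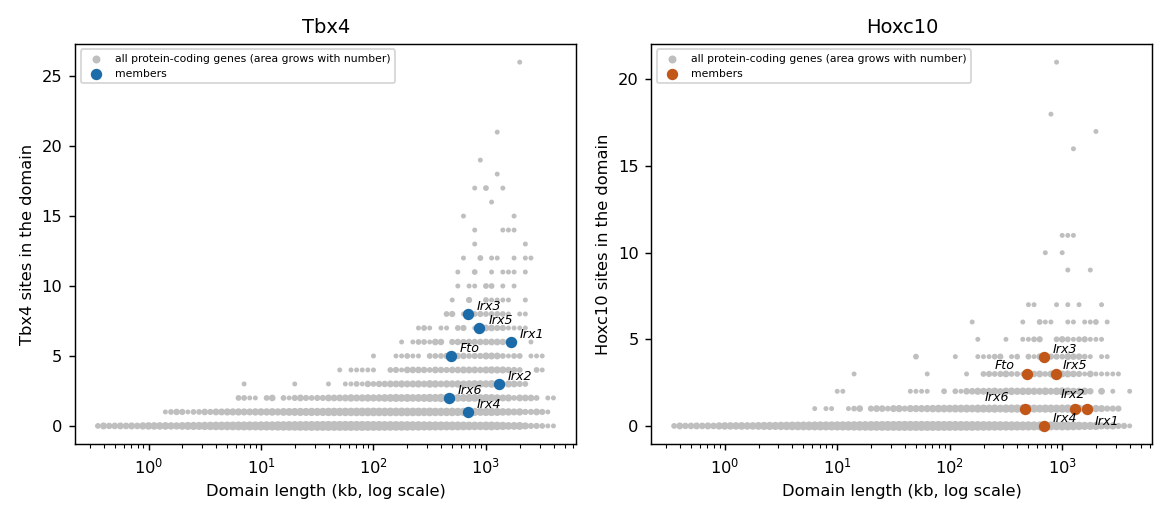
Each panel plots the number of sites in a gene's domain against domain length in kb on a log axis, for Tbx4 (left) and Hoxc10 (right). Grey points are all protein-coding genes, binned by length, and coloured points are the 7 members, of which Irx3, at 689 kb, lies highest in both panels.

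Fto covers 355 kb, from 91313367 to 91668433 of chromosome 8 (mm10), and was the only member with sites inside the gene. The Iroquois genes are far shorter, 3.14 to 10.03 kb. Inside Fto there were 8.45 Tbx4 and 2.82 Hoxc10 sites per Mb. Over the domains of the chromosome 8 members together there were 8.59 and 3.96, so the gene body was no denser than its surroundings. It held 3 Tbx4 summits, at 91446149 with a score of 7.14, at 91592986 with 3.67 and at 91612522 with 2.26. The score is the value deposited with each summit, taken to be on the −log10 scale of the authors' peak caller. It is used here only within its own list. These summits lay 132.8, 279.6 and 299.2 kb from the start of Fto, or 37.4%, 78.8% and 84.3% along its length. A single Hoxc10 summit in Fto, at 91593019 with a score of 5.69, was 33 bp from the second Tbx4 summit. The gene table gives no exons, so whether these sites are in introns could not be read. Fto and Rpgrip1l, a gene of the ciliary transition zone, are 75 bp apart and read in opposite directions, and the space between them held no site of either factor.

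The highest Tbx4 sites of the members stood in the 130 kb between Fto and Irx3. The Tbx4 summit at 91679656, with a score of 18.38, lay 11.2 kb beyond the upper end of Fto, and 6.28% of the Tbx4 list scored as high. A Hoxc10 summit with a score of 5.69 was 12 bp away, at 91679644, the closest pair of the members. The Tbx4 summit at 91714192 had a score of 15.93, which 7.74% of the list reached, and lay inside Gm36325, a long noncoding RNA gene. Between them a Hoxc10 summit at 91692324 scored 15.53, reached by 18.3% of the Hoxc10 list, with no Tbx4 summit closer than 12.7 kb. Irx3 is read towards Fto, so all of these sites are beyond the 3′ end of Irx3. At 15.4 sites per Mb for each factor, this stretch was the densest of those with a site. That value rests on only 2 sites of each factor, and the order of the stretches was not tested.

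The 556 kb between Irx3 and Irx5 held the most sites, 6 of Tbx4 and 2 of Hoxc10. The Tbx4 summits stood at 91867201 (score 1.63), 91948791 (5.30), 91974081 (8.12), 92108766 (2.26), 92114650 (5.30) and 92286991 (4.46). They ran from 65.5 kb above Irx3 to 70.8 kb below Irx5. The lowest of them was inside Irx3os, a noncoding RNA gene next to Irx3, and 99.9% of the Tbx4 list scored as high. The highest in score was 182 bp from LOC115486949, another noncoding gene. The Hoxc10 summits, at 91948157 with 3.26 and at 91948894 with 7.02, were 0.737 kb apart. The second was 103 bp from a Tbx4 summit and the first 634 bp from the same one, so that only the second counts as co-bound.

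The domain of Irx6 held fewer sites than those of Fto, Irx3 and Irx5. Between Irx5 and Irx6, over 313 kb, there was a Tbx4 summit at 92629369 with a score of 2.26 and a Hoxc10 summit at 92669043 with 19.04. That Hoxc10 summit, the highest of the members, was reached by 12.6% of its list and lay 5.25 kb below Irx6. No Tbx4 summit was closer to it than 39.7 kb. Between Irx6 and Mmp2, which encodes a matrix metalloproteinase, the Tbx4 summit at 92716222 (score 3.67) fell in Gapdh-ps16, a pseudogene of the glycolytic enzyme gene Gapdh.

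The Irx1 domain on chromosome 13 held 6 Tbx4 sites over 1666 kb. The space between Adamts16 and Irx1 is 1116 kb long, of which 1 Mb counts. Of its 4 Tbx4 summits, 3 were inside the noncoding RNA gene 1700112M02Rik, at 71513364 (score 1.63), 71558553 (2.26) and 71565555 (3.67), 392.7 to 444.9 kb from Irx1. The fourth, at 71942412 with 2.94, was 15.8 kb below Irx1, the Tbx4 summit nearest to the end of any Iroquois gene. None of the 4 scored above the list median of 3.67.

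Between Irx1 and Irx2, over 661 kb, stood the only Hoxc10 site of that chromosome's members. It was at 72400850 with a score of 10.67, which 34.8% of the Hoxc10 list reached, and a Tbx4 summit of 3.67 was 64 bp away at 72400914. It lay 223.6 kb below Irx2 and 437.1 kb above Irx1. A second Tbx4 summit there, at 72560901 with 6.19, was 63.5 kb below Irx2 inside the noncoding gene Gm38580. The 625 kb between Irx2 and Irx4 held 1 Tbx4 summit, at 73071031 with 3.67, and it was 188.6 kb below Irx4. In the 50.3 kb from Irx4 to Ndufs6, a gene of respiratory complex I, there was no site.

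**Figure D3:**
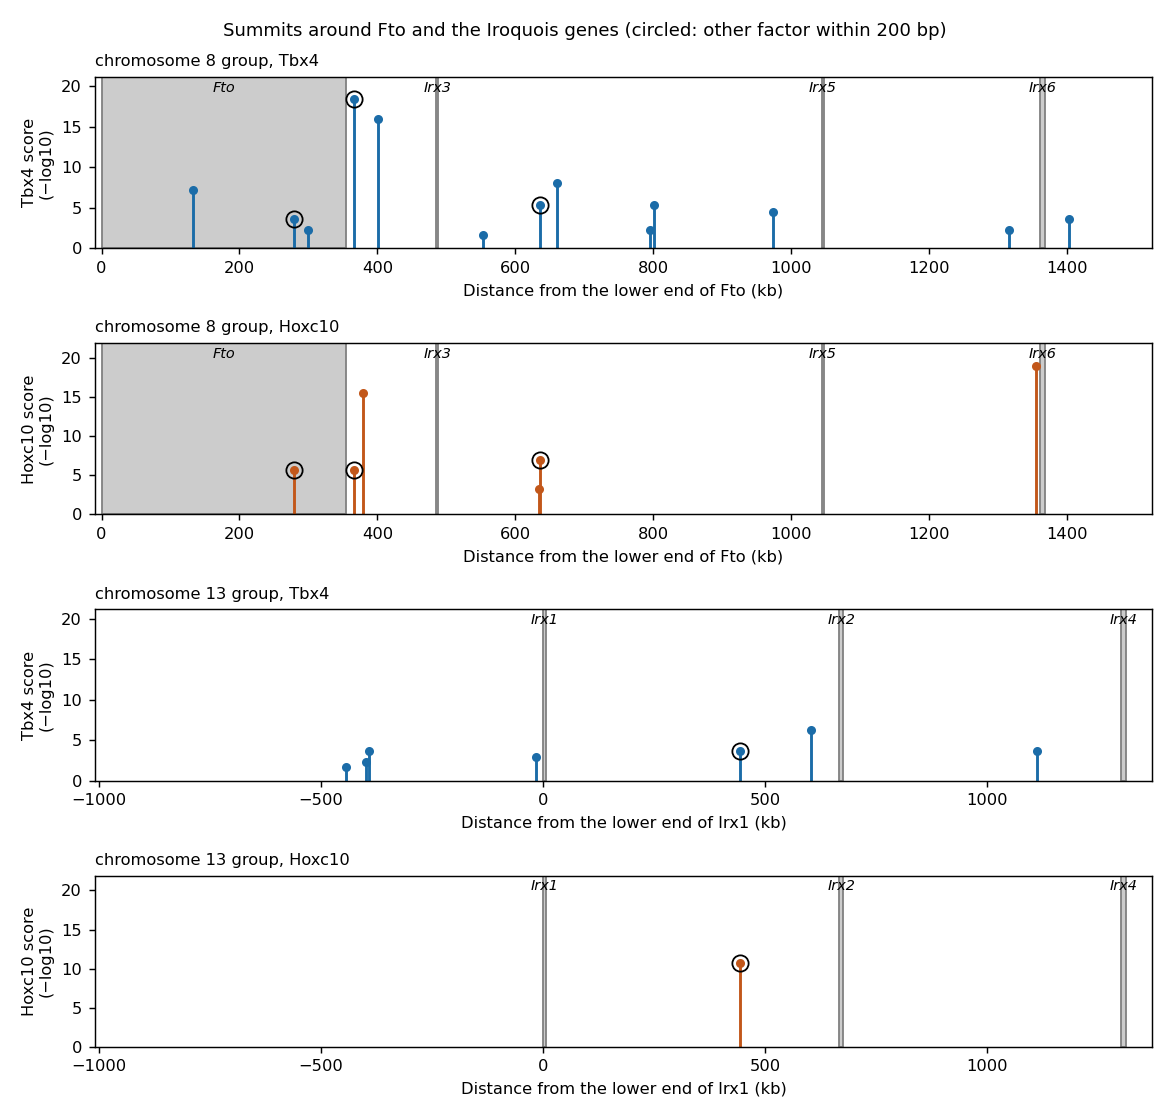
Vertical lines mark each Tbx4 and Hoxc10 summit of the members, with its score as height, against the distance in kb from the lower end of Fto (chromosome 8 group, upper panels) or of Irx1 (chromosome 13 group, lower panels). Grey bars are the members and circles mark summits with the other factor within 200 bp. The Tbx4 scores of 18.38 and 15.93 stand between Fto and Irx3, and the chromosome 13 group has a single Hoxc10 summit.

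The bodies of the Iroquois genes themselves, 3.14 to 10.03 kb long, held no summit of either factor. The nearest Tbx4 summit was 15.8 kb from Irx1, 35.3 kb from Irx6, 63.5 kb from Irx2, 65.5 kb from Irx3, 70.8 kb from Irx5 and 188.6 kb from Irx4. The nearest Hoxc10 summit was 5.25 kb from Irx6, 106.2 kb from Irx3 and 223.6 kb from Irx2. For Irx5, Irx1 and Irx4 it was 307.6, 437.1 and 858.7 kb away. Promoter sequences from RefSeq (GRCm38.p6, the build also called mm10), of 250 bases before to 50 after the start, were matched for Fto, Irx3, Irx2 and Irx4. None of these 4 held a summit. Of 21263 promoters of protein-coding genes, 1.10% held a Tbx4 summit and 0.150% a Hoxc10 summit.

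The same 4 promoters were searched on both strands for 4 short motifs. None held the T-box core GGTGTGA, which 3.68% of the 21263 promoters hold, or its shorter form AGGTGT (12.7%). None held the posterior Hox core TTTATNG (9.58%), nor the shorter TTTAT within it (35.0%). The letters are absent from these windows, and no sequence around the summits was searched.

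The next comparison set the 2 clusters against each other. The chromosome 8 group, with Fto, spans 1.51 Mb from 91313292 to 92827289. The chromosome 13 group spans 2.36 Mb from 70958232 to 73319875. The chromosome 8 group held 13 Tbx4 sites, or 8.59 per Mb (95% Poisson interval 4.57 to 14.7), and the chromosome 13 group 7, or 2.96 per Mb (1.19 to 6.11). The ratio was 2.90 (95% interval 1.07 to 8.58; exact binomial test, two-sided, p = 0.0215, adjusted p = 0.0539 over 5 tests by the Benjamini-Hochberg method). For Hoxc10 there were 6 sites, 3.96 per Mb (1.45 to 8.63), in the chromosome 8 group and 1 site, 0.423 per Mb (0.0107 to 2.36), in the chromosome 13 group. The ratio was 9.36 (interval 1.14 to 431; exact binomial test, two-sided, p = 0.0165, adjusted p = 0.0539). Neither ratio passed 0.05 after adjustment. The intervals assume that sites are independent, which was not tested. The ratios count listed summits only, and how these were selected is not stated. From the first to the last Tbx4 site, the running numbers of the peak names span 20 in the chromosome 8 group and 19 in the chromosome 13 group. Of these numbers 13 and 7 are listed, so the groups differ more in listed than in numbered peaks. The part of the selection in the ratios was not tested.

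Over the domains of all protein-coding genes together, 2648 Mb, the density was 1.80 per Mb for Tbx4 and 0.604 per Mb for Hoxc10. The intervals of the chromosome 8 group lay above these values for both factors, and those of the chromosome 13 group included them. The difference from all domains was not tested.

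**Figure D4:**
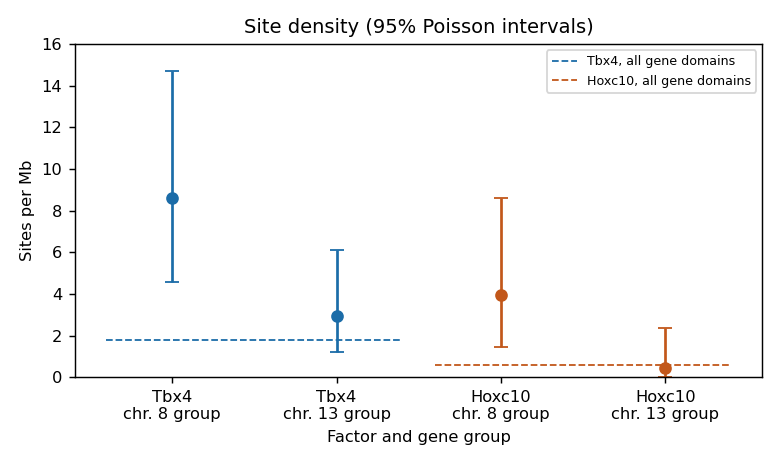
Points give sites per Mb of each factor in the chromosome 8 and chromosome 13 groups, bars their 95% Poisson intervals, and dashed lines the density over the domains of all protein-coding genes. Tbx4 stands at 8.59 and 2.96 per Mb and Hoxc10 at 3.96 and 0.423 per Mb.

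Stretches that pair by descent can be set side by side, a comparison chosen after the counts were seen. From Irx3 to Irx5, over 556 kb, there were 6 Tbx4 sites, 2 Hoxc10 sites and 1 co-bound pair. From Irx1 to Irx2, over 661 kb, there were 2, 1 and 1. From Irx5 to Irx6, over 313 kb, each factor had 1 site. From Irx2 to Irx4, over 625 kb, Tbx4 had 1 and Hoxc10 had 0. In both clusters the stretch below Irx6 or Irx4 held fewer sites than the one before it, between Irx3 and Irx5 or between Irx1 and Irx2.

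The 13 Tbx4 scores of the chromosome 8 group ran from 1.63 to 18.38 with a median of 4.46, and 3 of them exceeded the upper quartile of the list (7.14). The 7 of the chromosome 13 group ran from 1.63 to 6.19 with a median of 3.67, and 0 exceeded it. In the whole list 21.9% did. The 6 Hoxc10 scores of the chromosome 8 group ran from 3.26 to 19.04 with a median of 6.36, of which 2 exceeded the upper quartile of 12.99, and the 1 score of the chromosome 13 group was 10.67. The list medians were 3.67 for Tbx4 and 7.72 for Hoxc10, and the list maxima were 317.1 and 237.9. The highest scores of these sites, 18.38 for Tbx4 and 19.04 for Hoxc10, were far below the maxima. They were reached by 6.28% of the Tbx4 list and 12.6% of the Hoxc10 list.

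**Figure D5:**
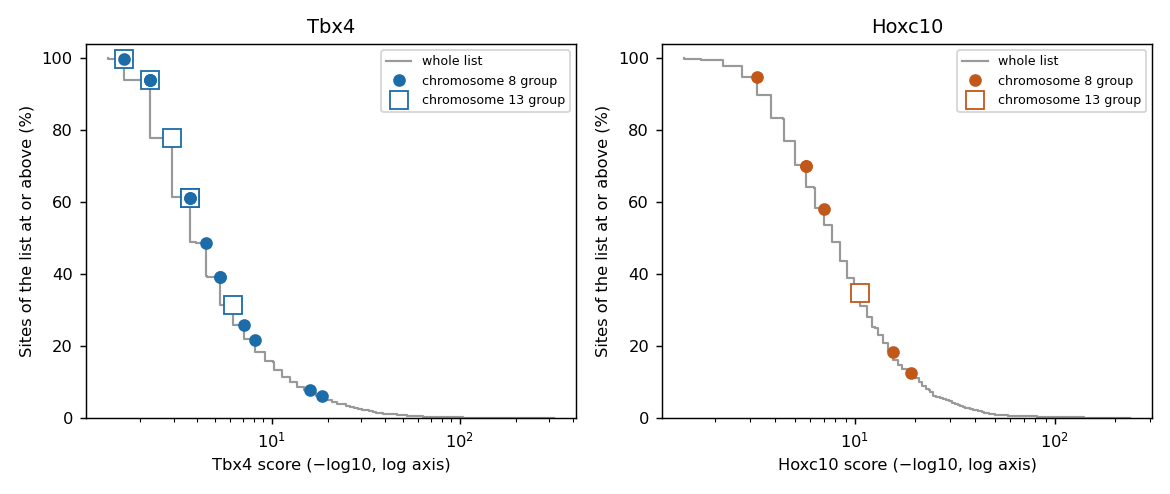
Grey steps give the percentage of each list at or above a score, on a log axis, for Tbx4 (left) and Hoxc10 (right). Filled circles are sites of the chromosome 8 group and open squares those of the chromosome 13 group, whose highest Tbx4 score is 6.19; sites with equal scores coincide.

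The factors met at 4 places, 3 in the chromosome 8 group and 1 in the chromosome 13 group, with summits 12, 33, 64 and 103 bp apart. In the chromosome 8 group 3 of 6 Hoxc10 sites were co-bound, 50% (exact Clopper-Pearson interval 11.8 to 88.2%), and in the chromosome 13 group 1 of 1. Of the Tbx4 sites, 3 of 13 were co-bound in the chromosome 8 group, 23.1% (5.04 to 53.8%), and 1 of 7 in the chromosome 13 group, 14.3% (0.361 to 57.9%). The share of Tbx4 among all sites was 68.4% (43.4 to 87.4%; 13 of 19) and 87.5% (47.3 to 99.7%; 7 of 8). The differences, chromosome 8 minus chromosome 13, were -50.0 points for Hoxc10 (interval -81.2 to 35.3), 8.79 points for Tbx4 (-31.1 to 38.4) and -19.1 points for the share of Tbx4 (-43.7 to 19.1). None passed Fisher's exact test (two-sided, adjusted p = 1 for each), and with so few sites the intervals allow large differences either way. Over both groups 4 of 20 Tbx4 sites were co-bound, 20% (5.73 to 43.7%), against 10.9% of the Tbx4 list, and 4 of 7 Hoxc10 sites, 57.1% (18.4 to 90.1%), against 32.1% of the Hoxc10 list. Both intervals include the value of the list.

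Each group ends at the next protein-coding gene, except at the lower edge of the chromosome 13 group, where the limit of 1 Mb falls short of Adamts16. Sites beyond these ends are not counted. The nearest Tbx4 summits outside the chromosome 8 group were 208.9 kb below it, inside Rbl2 (score 4.46), and 43.2 kb above it, inside Lpcat2 (3.67). The nearest Hoxc10 summits were 451.0 kb below, inside Chd9 (7.72), and 2077 kb above (13.04). Around the chromosome 13 group the nearest Tbx4 summits were 1963 kb below (2.94) and 514.1 kb above, inside Nkd2 (5.30), and the nearest Hoxc10 summits 780.0 kb below (5.69) and 4004 kb above (13.04).

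Other genes had like counts. By the sum of absolute differences in Tbx4 sites, Hoxc10 sites and co-bound pairs over the 2 lists, the genes closest to Irx3, each at a sum of 1, were Gas1, a Hedgehog co-receptor gene (8 Tbx4 sites, 4 Hoxc10 sites and 1 pair), Mecom, a zinc finger factor gene (8, 5 and 2), and Sema3a, which encodes an axon repellent (7, 4 and 2). For Irx1, which has the most sites of the chromosome 13 group, 9 genes had the same 3 counts, and those closest in domain length were Tmem132c, Fam155a, which encodes a subunit of a sodium leak channel, and Spred2, an inhibitor of the Ras pathway.

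The other TALE homeobox genes give a frame for the members. Of 12, 5 had a Tbx4 site, 7 a Hoxc10 site and 4 a co-bound pair, and 5 had neither factor. Meis1, a Hox cofactor gene, had 8 Tbx4 and 5 Hoxc10 sites, and Pknox2 had 5 and 5. The 12 genes had a median of 0 Tbx4 sites and 1 Hoxc10 site, against 5 and 1 for the members and 0 and 0 over all protein-coding genes. Their domains had a median of 224.6 kb, shorter than those of the members. A site between 2 members counts for both in the members' median, whereas the domains of these 12 genes do not overlap. Among 12 genes of anterior-posterior limb patterning, 9 had a Tbx4 site, 7 a Hoxc10 site and 3 a co-bound pair, with medians of 2 and 1 sites and a median domain of 751.9 kb. Hand2, a factor of the posterior limb bud, had 7 and 2 sites, and the Hedgehog effector Gli2 3 and 3. Isl1, which starts the hindlimb bud, had 4 and 2, and Sall1, a zinc finger factor gene with as many in all, 5 and 1. The posterior signal Shh had 0 and 0 in its domain of 773.5 kb. Sites in or beyond the next protein-coding genes were not counted for it.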

How the data were processed

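Tbx4 and Hoxc10 sites were read from 2 peak lists, 1 per sample. The submitters' processing notes name Bowtie2 2.2.6, MACS2 2.1.1.20160309, HOMER and mm10. The deposited score was taken to be on a −log10 scale, of a p-value or a q-value. Which of them, the control library, pooling and the selection of summits are not stated in the labels or files. Genes came from a RefSeq table of GRCm38.p6, the same build. Coordinates are 1-based.

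Domains, summit pairs within 200 bp and counts were computed with Python 3.11.15, pandas 2.3.3, SciPy 1.17.1 and statsmodels 0.14.6. The clusters were compared with Fisher's exact test for shares, with Newcombe intervals of the difference, and with an exact binomial test of counts given lengths, adjusted over 5 tests, with a threshold of 0.05. The functions were tested on simulated data. Alternatives changed the score limit, the domain and the pair distance. Intervals are at 95%.

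The members and gene lists were chosen with earlier results of these data known. By rule the text names the members, their neighbours, 3 genes of like counts for the richest member of each cluster and, of each list, the 3 genes with most sites, of which 1 is not reported here. Sall1, Shh, Chd9 and annotations at single sites were named after their values were seen. No genome sequence was used, so sequences under the summits are not shown.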

Additional observations from a re-analysis of the deposited data

How the results depend on the processing

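Under 11 alternatives 41 of 56 values kept their direction and side of the threshold, or for counts stayed within 1.5 times. Some counts could not change, such as those of Hoxc10 when only the Tbx4 list was cut. The same holds for those of chromosome 13 when Fto was left out. No comparison of the clusters passed 0.05 after adjustment in any setting, the main one included. A comparison therefore counted as kept unless its direction turned, and the tally is no measure of stability. The ratio of Tbx4 sites per Mb ranged from 2.59 (domains of at most 100 kb) to 3.84 (first to last member only), and that of Hoxc10 from 3.12 (scores at or above the list median) to 10.2 (without Fto, an alternative chosen after seeing the data). With domains of at most 100 kb no Hoxc10 ratio could be formed.

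Sites with a score at or above the list median left 2 Hoxc10 sites and 0 co-bound pairs in the chromosome 8 group and 4 Tbx4 sites in the chromosome 13 group. The difference in the share of Tbx4 then turned to 1.82 points and that in co-bound Tbx4 sites to -25.0 points. The 1614 highest Tbx4 sites left 4 in the chromosome 8 group and 1 in the chromosome 13 group; with all 371 sites tied at the last score of 5.30 kept, an alternative added after seeing the data, they left 6 and 1. Domains of at most 100 kb left 2 Tbx4 sites, 0 Hoxc10 sites and 0 pairs in the chromosome 13 group, and the stretch from first to last member 3 Tbx4 sites there. Pairs within 50 bp left 0 in the chromosome 13 group, and the difference in co-bound Hoxc10 sites turned to 33.3 points. Fewer sites enter in these settings by construction. No paired analysis was possible because each factor has 1 sample. Without reads, replicates or a control library, a stretch with no site cannot be called unbound.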

Other observations

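Below the chromosome 8 group, beyond Rpgrip1l, Aktip and Rbl2, a further co-bound pair stood inside Chd9, which encodes a chromatin remodelling helicase. Its Tbx4 summit at 90862160 scored 12.42, reached by 11.3% of the Tbx4 list, and its Hoxc10 summit at 90862298, 138 bp away, scored 7.72. A second Hoxc10 summit of that domain lay outside the gene at 90496310 with 6.34. Aktip and Rpgrip1l, which the Fused toes deletion also removes, had 0 sites of either factor in their domains.

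The peak names carry running numbers. Between the first and last Tbx4 site of the chromosome 8 group 20 numbers are spanned and 13 are listed, 65%. In the chromosome 13 group 19 are spanned and 7 are listed, 36.8%. Over the whole Tbx4 list 10.6% of the numbers up to the highest are listed. The Hoxc10 sites of the chromosome 8 group span 11 numbers, of which 6 are listed, 54.5%, against 40.1% for the list. Stretches that begin and end with a listed site hold a higher share by construction, and no test was made.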
